A study of Mus musculus with 2 samples.

Results

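Foxp3 and 9 genes for transcription factors that work with it or upstream of it were followed in Tregs of spleen and lung after bleomycin (BLM). The 10 genes were taken by symbol from the 24346 symbols listed in both libraries, and all 10 were found: Foxp3, the Ikaros family genes Ikzf1, Ikzf2, Ikzf3 and Ikzf4, the Runx genes Runx1 and Runx3 with their shared partner Cbfb, and the Foxo genes Foxo1 and Foxo3. Both libraries came from Foxp3-DTR-GFP (FDG) mice, in which the endogenous Foxp3 locus drives GFP. All mice had received BLM, 50 μg into the trachea by the methods, which give an age of 10 to 16 weeks for the BLM experiments. On day 15, GFP+CD4+ cells of 3 mice were sorted and combined, which gave 1 library for splenic Tregs and 1 for lung Tregs. No library from mice without BLM was analysed here. The lung was digested with enzymes and cleared on Percoll, whereas the preparation of spleen is not described in the sources used here, so preparation and tissue cannot be told apart.

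Foxp3 is the transcription factor that defines Tregs and, bound to partner proteins, both activates and represses genes. Helios (encoded by Ikzf2) and Eos (Ikzf4) are Ikaros zinc finger proteins typical of Tregs, whereas Ikaros (Ikzf1) and Aiolos (Ikzf3) are found in lymphocytes generally. Runx proteins bind DNA as pairs with Cbfb and help to keep Foxp3 expressed, and Foxo1 and Foxo3 are forkhead factors that promote Foxp3 expression and are driven out of the nucleus by Akt when the T cell receptor is engaged. Foxo1 also maintains genes of resting, recirculating T cells.

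Levels are given as FPKM, the fragments of a gene per kilobase of exon, scaled for the size of the library, which can be compared between genes. Since each tissue has 1 library, no difference could be set against a spread between replicates, and p-values are left out. The reads behind each value were estimated from transcript length, and the 95% intervals below come from these reads, so that they cover counting error only and not the spread between mice. A gene was called when its FPKM differed more than 2-fold, with values under 0.1 FPKM set to 0.1. Of 12094 genes that reached 1 FPKM in one or both libraries, here called tested, 2149 (17.8%) were called higher in lung and 1872 (15.5%) lower. With each library rescaled to the same sum, which lowered the median log2 ratio of these genes by 0.43, 1586 were higher and 3133 lower. The estimated reads summed to 9859578 in spleen and 12877409 in lung. At 1 kb, 1 read was worth 0.0964 FPKM in spleen and 0.0849 in lung, a smaller difference than these sums alone would give. The deposited FPKM thus need not be scaled to the reads of each library alone.

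T cell genes were high in both libraries, with 10 of 10 markers at 91.9 FPKM or more in spleen and 113.9 or more in lung. Genes of other cells differed between the libraries. The summed FPKM of 10 macrophage markers was 547 in spleen and 31255 in lung (8 called higher), of which Lyz2 made up 376 and 24947. The median log2 ratio of these 10 markers was 2.27. The summed FPKM of 8 CD8 T and NK cell markers was 187 and 362 (3 called higher, 1 lower), and that of 8 B cell markers was 262 and 146 (2 of 7 tested called lower). It was 425 and 1200 for 5 listed neutrophil markers (3 called higher), 0.290 and 163 for 6 fibroblast markers (5 of 5 tested called higher), and 12.5 and 3126 for 6 lung epithelial markers (4 called higher, 1 lower), of which Scgb1a1 made up 3021 in lung. For 6 endothelial markers it was 55.4 and 40.6, nearly all from Pecam1 (54.8 and 31.7), while 2 of the 3 tested, Cldn5 and Vwf, were called higher. Col3a1, Pdgfra, Mgp, Sftpc and Sftpb were listed at 0 in spleen, Ncr1 and Kdr at 0 in lung, Cdh5 at 0 in spleen and Tie1 at 0 in both. In such bulk samples, fewer cells of a type and less RNA per cell cannot be told apart. The part of these cells in the values below, that of Foxp3 included, was not tested.

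Among the members with a promoter sequence in RefSeq (GRCm38.p6), Foxp3 and Runx3 had the highest lung-to-spleen ratios and Foxo1 the lowest at 1 FPKM or more, and the 250 bases before their first RefSeq start are shown for that reason. Capitals mark the letters of a forkhead core (TGTTTA), a Runx core (TGTGGT) or an Ikaros core (TGGGAA), searched on both strands. The forkhead letters serve Foxp3 and Foxo proteins alike, and the Ikaros letters contain the GGAA core of ETS factors. The Foxp3 sequence is chrX:7579426-7579675 and the Runx3 sequence chr4:135120395-135120644, both on the plus strand, as is the Foxo1 sequence at chr3:52268087-52268336.
Foxp3: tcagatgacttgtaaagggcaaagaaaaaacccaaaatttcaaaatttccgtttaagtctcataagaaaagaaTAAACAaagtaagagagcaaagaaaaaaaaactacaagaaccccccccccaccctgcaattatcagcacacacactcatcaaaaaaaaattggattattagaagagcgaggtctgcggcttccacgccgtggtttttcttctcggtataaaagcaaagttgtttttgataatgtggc
Runx3: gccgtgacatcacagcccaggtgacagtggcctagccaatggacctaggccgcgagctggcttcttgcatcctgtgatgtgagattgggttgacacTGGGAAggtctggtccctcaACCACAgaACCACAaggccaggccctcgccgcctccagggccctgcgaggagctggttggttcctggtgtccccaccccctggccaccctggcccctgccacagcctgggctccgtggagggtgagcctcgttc
Foxo1: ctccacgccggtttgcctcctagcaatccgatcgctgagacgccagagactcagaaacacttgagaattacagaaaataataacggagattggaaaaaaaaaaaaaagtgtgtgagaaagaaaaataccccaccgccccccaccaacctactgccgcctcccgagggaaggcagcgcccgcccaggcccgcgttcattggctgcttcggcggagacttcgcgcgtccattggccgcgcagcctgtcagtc

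The Foxp3 sequence held 1 forkhead match, which starts 177 bases before this RefSeq start and lies inside the longer gene model of GENCODE given below. That of Runx3 held 2 Runx matches, 134 and 126 bases before the start site, and 1 Ikaros match at 154 bases, none of which overlapped. The Foxo1 sequence held no match. Over the 11 sequences of 7 members that matched RefSeq by symbol, 1 held the forkhead letters, 1 the Runx letters and 1 the Ikaros letters, beside 12.03%, 14.05% and 21.6% of all 32851 promoter sequences of the same length. Foxp3, Runx3, Ikzf1 and Runx1 have 2 RefSeq starts each, which FPKM per gene do not separate, and the second starts of Foxp3 (chrX:7580233-7580482) and Runx3 (chr4:135152295-135152544) held no match.

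Foxp3 was at 18.7 FPKM in spleen (95% interval 17.4 to 20.2) and at 41.8 in lung (39.9 to 43.8), about 691 and 1749 reads. The lung level was 2.23-fold higher (2.04 to 2.44), and Foxp3 was the only one of the 9 members at 1 FPKM or more that was called higher, beside 17.8% of all genes tested. All 9 of these members had at least 10 FPKM in the higher library, a range in which 11.6% of 7279 genes were called higher and 9.15% lower. The Foxp3 ratio lay above that of 84.5% of tested genes. It was 1.65-fold after the rescaling to equal sums and 1.97-fold with equal upper quartiles, both under the 2-fold line, and 2.40-fold when 10 T cell genes were set equal. Foxp3 per unit of Cd4, the coreceptor used in the sort, was 0.0960 in spleen and 0.234 in lung, a ratio that no scaling changes and that was 2.44-fold higher in lung (2.22 to 2.68). Because GFP from this locus was the gate, presence of Foxp3 is a condition of the sort and not a result.

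Foxp3 lies on the plus strand of the X chromosome at 7573644 to 7595245 in GENCODE M21 (GRCm38). Of its 4577 exon bases, 853 overlap Flicr on the same strand, and 590 overlap Ccdc22, 373 Gm36995 and 266 Ppp1r3f on the opposite strand. The cDNA kit does not mark strand, and Flicr and Gm36995 have no FPKM value here. Ccdc22 was listed at 16.4 FPKM in spleen and 9.62 in lung, and Ppp1r3f at 5.94 and 1.84. The 3 genes nearest to Foxp3 in the plane of both log2 FPKM were Tpd52l2 (18.8 FPKM in spleen and 41.4 in lung), Ube2e3 (19.5 and 41.0) and Acsbg1 (19.8 and 41.0). With 2 libraries this likeness rests on 2 values per gene and describes level alone.

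**Figure D1:**
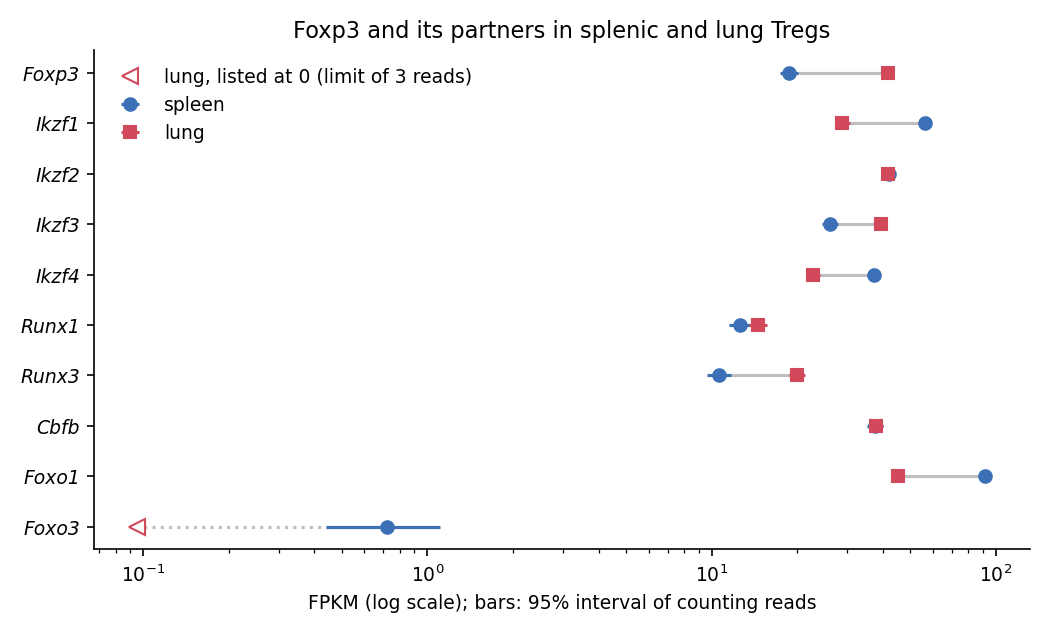
FPKM of the 10 members in the splenic library (blue circles) and the lung library (red squares) on a log axis, with bars for the 95% interval of counting reads, which are narrower than the symbols for most genes. Foxo3 is listed at 0 in lung and drawn as an open triangle at 0.0951 FPKM, the level of 3 reads. Foxp3, Ikzf3 and Runx3 lie to the right in lung, and Foxo1, Ikzf1 and Ikzf4 to the left.

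The order of the levels also differed. In spleen, Foxo1 was highest at 91.2 FPKM, followed by Ikzf1 at 56.1, Ikzf2 at 42.0, Cbfb at 37.5, Ikzf4 at 37.2, Ikzf3 at 26.0, Foxp3 at 18.7, Runx1 at 12.5, Runx3 at 10.6 and Foxo3 at 0.720. Only the intervals of Cbfb and Ikzf4 and those of Runx1 and Runx3 overlapped between neighbours in this order. In lung, Foxo1 was again first at 45.2 FPKM, followed by Foxp3 at 41.8, Ikzf2 at 41.6, Ikzf3 at 39.5, Cbfb at 37.8, Ikzf1 at 28.8, Ikzf4 at 22.7, Runx3 at 20, Runx1 at 14.6 and Foxo3 listed at 0. From Foxp3 to Cbfb each interval overlapped the next, so that their order was not resolved at this depth. In spleen, by contrast, the Foxp3 interval lay below those of Ikzf2, Ikzf3 and Cbfb.

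The Ikaros family did not move as a unit. Ikzf1, which encodes Ikaros, was at 56.1 FPKM in spleen (53.5 to 58.7) and 28.8 in lung (27.1 to 30.6), 1.95-fold lower in lung (1.804 to 2.101) and just short of the call. Its RefSeq transcripts range from 1542 to 5163 nt, which leaves 775 to 2882 reads in spleen and 452 to 1681 in lung. Ikzf4 (Eos) was at 37.2 FPKM in spleen (35.5 to 38.9) and 22.7 in lung (21.5 to 24.0), 1.64-fold lower in lung (1.53 to 1.76). Neither passed 2-fold as deposited, whereas after the rescaling to equal sums both did, at 2.63-fold and 2.21-fold lower.

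Ikzf3 (Aiolos) went the other way, with 26.0 FPKM in spleen (24.4 to 27.7) and 39.5 in lung (37.6 to 41.5), 1.52-fold higher in lung (1.40 to 1.65). It stayed above 1-fold under each of the 5 scalings, from 1.13 to 1.63. Ikzf2 (Helios) was nearly equal, at 42.0 FPKM in spleen (40.7 to 43.3) and 41.6 in lung (40.4 to 42.9), a ratio of 0.992 with an interval of 0.9501 to 1.036 that rests on about 3946 and 4445 reads. The ratio of Ikzf2 lay between 0.735 and 1.07 over the 5 scalings, so no direction is given for it. The further family member Ikzf5 (Pegasus) was at 8.19 FPKM in splenic and 5.55 in lung Tregs.

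Within each library, where scaling cancels, the makeup of the family was different. Ikzf1 took 34.8% of the summed FPKM of the 4 genes in spleen and 21.7% in lung, whereas Ikzf3 took 16.1% and 29.8%. Ikzf2 took 26.0% and 31.4%, and Ikzf4 23.0% and 17.1%. Ikzf1 exceeded Ikzf3 2.16-fold in spleen, and in lung Ikzf3 exceeded Ikzf1 1.37-fold, a shift of 2.96-fold in their ratio (2.65 to 3.30). Between the 2 genes typical of Tregs, Ikzf2 was 1.13 times Ikzf4 in spleen and 1.83 times in lung, a shift of 1.62-fold (1.496 to 1.763). B cells also express Ikzf1 and Ikzf3. Of the 7 B cell markers tested, 6 had less FPKM in lung, from Cd79a (80.4 in spleen, 30.4 in lung) to the nearly level Ebf1 (2.76, 2.70). The other 1, Fcrla, had more (6.45, 11.2). The part of B cells in the Ikzf1 and Ikzf3 values was not tested.

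**Figure D2:**
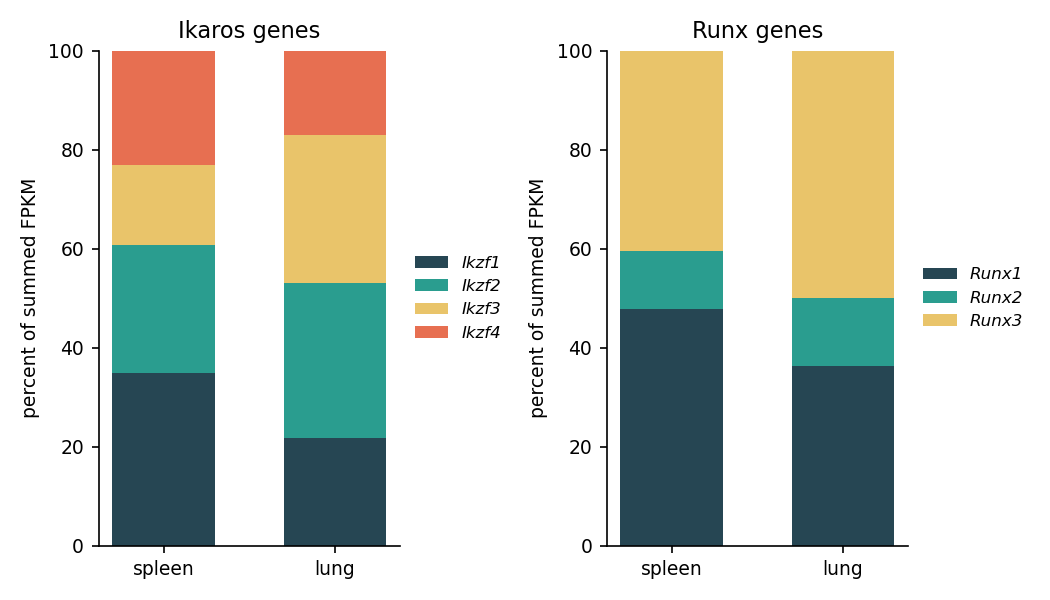
Percent of the summed FPKM of Ikzf1, Ikzf2, Ikzf3 and Ikzf4 (left) and of Runx1, Runx2 and Runx3 (right) held by each gene in the splenic and the lung library. Ikzf3 holds 16.1% in spleen and 29.8% in lung, and Runx3 holds 40.5% and 49.9%.

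Of the Runx genes, Runx3 was at 10.6 FPKM in spleen (9.60 to 11.7) and 20 in lung (18.7 to 21.4), about 404 and 865 reads. It was 1.89-fold higher in lung (1.67 to 2.13), under the call, and 1.40-fold to 2.03-fold higher over the 5 scalings. Runx1 was at 12.5 FPKM in spleen (11.5 to 13.6) and 14.6 in lung (13.6 to 15.6), a ratio of 1.16 (1.04 to 1.30) that became 0.862 after the rescaling to equal sums. The balance of the pair differed between the 2 libraries. Runx3 was at 0.846 times Runx1 in spleen, where their intervals overlapped, and at 1.37 times in lung, a shift of 1.62-fold (1.38 to 1.90). The lengths of the 3 RefSeq transcripts of Runx1 run from 1985 to 5861 nt, and its FPKM depend on which of them was expressed.

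Cbfb, the subunit that all Runx proteins share, was level with 37.5 FPKM in spleen (35.3 to 39.9) and 37.8 in lung (35.7 to 40.1), a ratio of 1.01 (0.926 to 1.10) and of 0.747 to 1.08 over the 5 scalings. There were 1.62 FPKM of Cbfb for each FPKM of Runx1 and Runx3 together in spleen and 1.09 in lung. Runx2, at 3.07 and 5.49 FPKM, was the lowest of the Runx genes in both libraries. CD8 T cells and NK cells also express Runx3. Cd8a was at 4.13 FPKM in splenic and 12.2 in lung Tregs and Cd8b1 at 19.9 and 74.8, higher in lung as Runx3 was, and the list of CD8 T and NK cell markers as a whole was higher for 6 of 8 genes. Among its NK cell genes, Nkg7 was at 134 and 236 FPKM and Klrd1 at 6.74 and 13.7, whereas Klre1 was at 2.33 and 1.33 and Ncr1 at 2.69 and listed at 0. The part of such cells in the Runx3 value was not tested.

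Foxo1 was at 91.2 FPKM in spleen (89.2 to 93.2) and 45.2 in lung (43.9 to 46.6), with about 7996 and 4501 reads the most of any member. It was 2.02-fold lower in lung (1.94 to 2.09), so that the interval spans the 2-fold line, and it was the only one of the 9 members at 1 FPKM or more that was called lower, beside 15.5% of all genes tested. Over the 5 scalings it was 1.88-fold to 2.72-fold lower. Only 15.3% of tested genes had a lower ratio. Foxo1 stood at 4.86 times Foxp3 in spleen and at 1.08 times in lung, a shift of 4.50-fold (4.09 to 4.95) that does not depend on scaling. This pair joins the lowest and the highest ratio of the 9 members, a choice that the interval does not cover. Against Foxp3, Ikzf1 shifted in the same direction by 4.34-fold (3.87 to 4.88), Ikzf4 by 3.65-fold and Ikzf2 by 2.25-fold.

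Foxo3 was at 0.720 FPKM in spleen (0.440 to 1.11), which equals about 20 reads on its transcript of 2889 nt, and it was listed at 0 in lung. At the splenic FPKM the lung library would have held about 22.7 reads, and 3 reads, the limit taken for a count of 0, equal 0.0951 FPKM (0.117 as the upper end of an interval like the others), but 47 genes at 20 FPKM or more in spleen were also listed at 0 in lung, so no fold is given. Set to 0.1 FPKM, Foxo3 counted as a second member lower than 2-fold. It did not reach 1 FPKM in either library and is left out of the counts of called members. Of the other Foxo genes, Foxo4 was at 1.24 and 1.12 FPKM, and Foxo6 was listed at 0 in both.

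**Figure D3:**
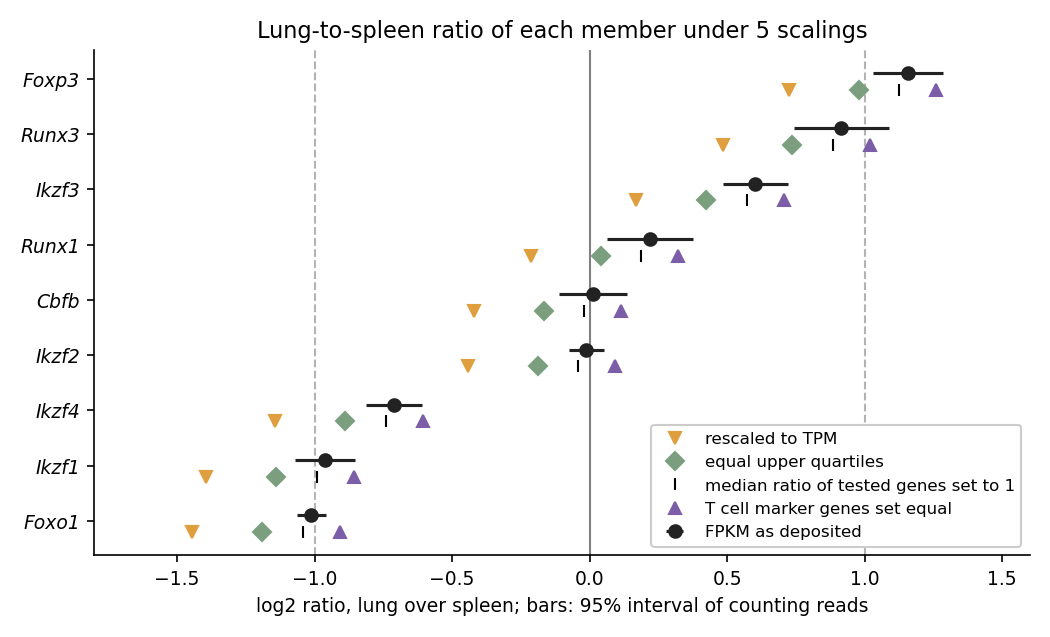
The log2 ratio of lung over spleen for the 9 members at 1 FPKM or more (black circles, with bars for the 95% interval of counting reads) and the same ratio under 4 other scalings (colored symbols). Dashed lines mark 2-fold. Foxp3, Runx3 and Ikzf3 stay right of 0 and Foxo1, Ikzf1 and Ikzf4 left of 0 under all 5, whereas Runx1, Cbfb and Ikzf2 lie on both sides.

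The members as a group had no common direction. Foxp3, Runx3 and Ikzf3 were higher in lung and Foxo1, Ikzf1 and Ikzf4 lower under each of the 5 scalings, whereas Runx1, Cbfb and Ikzf2 changed sides. The median log2 ratio of the 9 members at 1 FPKM or more was 0.012, beside 0.031 over all 12094 genes, of which 6226 were higher. The summed FPKM of the 10 members was 333 in spleen and 292 in lung.

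**Figure D4:**
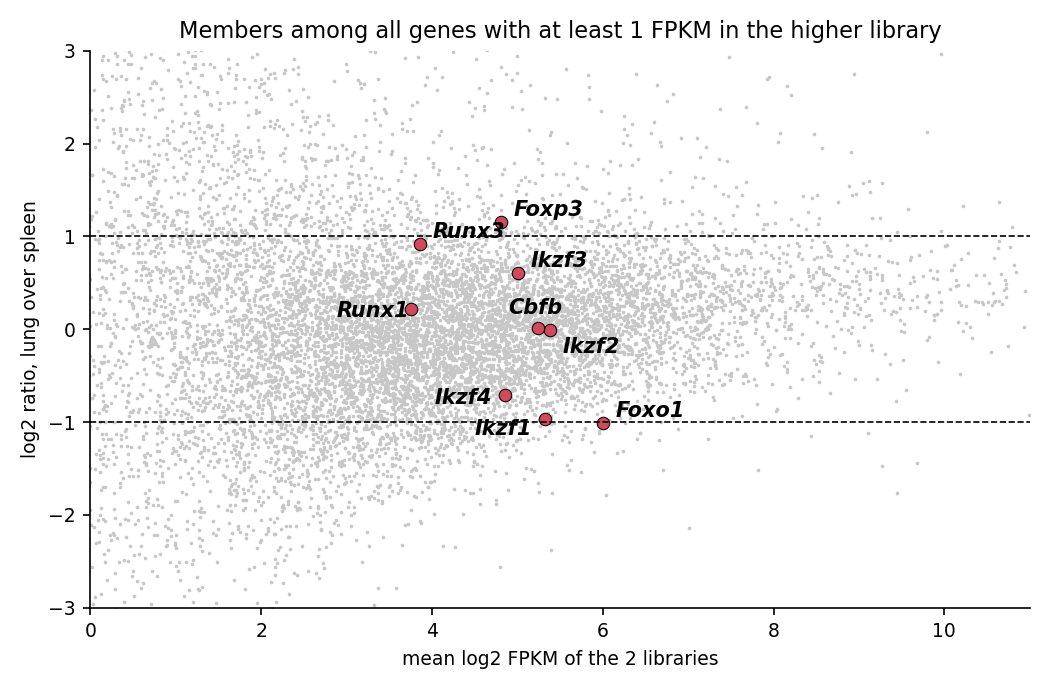
Mean log2 FPKM of the libraries (x axis) against the log2 ratio of lung over spleen (y axis) for genes that reached 1 FPKM in either library (grey), with the 9 members in red and dashed lines at 2-fold. The axes leave out 1780 of the 12094 genes. The members lie among the bulk of the genes, and Foxp3 and Foxo1 are just past the lines.

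The genes of connected pathways were followed as lists, whose counts and medians stand beside 17.8% called higher, 15.5% called lower and a median of 0.031 over all tested genes. Of 8 genes that Foxp3 is known to induce, 2 were called higher in lung and 2 lower, with a median log2 ratio of -0.041. Ctla4, an inhibitory receptor, was at 221 FPKM in splenic and 601 in lung Tregs (2.72-fold), and Capg, an actin capping protein, at 306 and 913 (2.99-fold). Gpr83, a receptor of resting Tregs, was at 95.6 and 18.4 (5.20-fold lower), and Lrrc32, which displays latent TGF-β, at 69.4 and 30.4 (2.28-fold lower). Genes induced by Foxp3 thus lay on both sides.

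Of 8 genes that Foxp3 is known to repress, 7 were tested, 2 were called higher in lung and 0 lower. Of the 7, 3 were higher and 4 lower, with a median log2 ratio of -0.23. The 2 called were Pde3b, a phosphodiesterase, at 3.46 FPKM in spleen and 8.10 in lung, and the cytokine gene Il4 at 1.98 and 7.73. Il4 rested on about 8 and 35 reads, and the interval of its ratio, 1.78 to 9.71, spans the 2-fold line. Tcf7, a factor of resting T cells, was at 273 and 143 FPKM, 1.91-fold lower, and Il2 was at 0.523 in spleen and listed at 0 in lung.

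Among 9 kinases, phosphatases and regulators upstream of Foxo proteins, 2 were called higher and 1 lower. Sgk1, a kinase that phosphorylates Foxo proteins, had 37.8 FPKM in the splenic library and 175 in that of lung (4.62-fold), and Pdpk1, which activates both Sgk1 and Akt, was at 15.4 and 31.7 (2.05-fold). Pik3ip1, an inhibitor of PI3K and itself induced by Foxo1, was at 80.3 and 38.4 (2.09-fold lower). Akt1 (57.9 and 66.8 FPKM) and Akt2 (31.0 and 26.5) differed by less than 2-fold.

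Of 10 genes that Foxo1 is known to induce, 6 were lower in lung, with a median log2 ratio of -0.41, and 2 were called lower and 1 higher. Pik3ip1, given above, was one of those called lower. Klf2, a factor of T cell trafficking, was at 296 and 170 FPKM (1.74-fold lower), and S1pr1, the receptor for tissue egress, at 244 and 172. Gabarapl1, a gene of autophagy, was at 5.24 and 13.0 (2.49-fold higher), Il7r at 107 and 182, and Ccr7 at 311 and 361.

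Of 7 genes linked to Runx3, 2 were called higher and 1 lower. Itgae, which encodes the CD103 integrin chain of tissue T cells, was at 10.8 FPKM in splenic and 55.4 in lung Tregs (5.15-fold), and Cd8a is given above. Eomes, a T-box factor, was at 1.68 and 0.0246. Zbtb7b, which encodes ThPOK, the repressor of Runx3 in CD4 T cells, was at 11.4 and 5.81 FPKM (1.97-fold lower).

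The corepressors that Ikaros proteins and Foxp3 recruit were mostly lower in lung by small amounts. Of 16 genes of the NuRD, CtBP and Sin3 complexes, 11 were lower, with a median log2 ratio of -0.32, and 1 was called lower and 2 higher. Hdac2, a histone deacetylase, was at 79.5 FPKM in splenic and 28.9 in lung Tregs (2.75-fold lower), Ctbp2 at 1.36 and 6.22, and Gatad2b of NuRD at 4.204 and 10.06. Ctbp1, a partner of Eos, was at 76.1 and 43.5 FPKM (1.75-fold lower), and Chd4, the NuRD ATPase, at 17.7 and 15.3.

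Of 9 enzymes that modify or stabilize Foxp3 protein, 7 were lower in lung, with a median log2 ratio of -0.49, and 2 were called lower and 0 higher. The acetyltransferase gene Ep300 was at 13.0 FPKM in splenic and 5.76 in lung Tregs (2.25-fold) and Hdac7 at 28.1 and 12.9 (2.18-fold). Usp7, which removes ubiquitin from Foxp3, was at 20.3 and 11.2 FPKM, and Kat5, an acetyltransferase of Foxp3, was at 13.77 and 21.02. Among the 5 Groucho genes, corepressors of Runx proteins, 4 were lower and none was called in either direction. The Runx corepressor gene Cbfa2t2 was at 7.82 and 2.75 FPKM, a call, and Cbfa2t3 was under 1 FPKM in both libraries.

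Foxp3 differed in direction from its own family. Foxp1, its relative that maintains quiescence of T cells, was at 46.2 FPKM in splenic and 24.6 in lung Tregs (1.88-fold lower), and Foxp4 was at 5.51 and 1.32 (4.17-fold lower), whereas Foxp2 was listed at 0 in both. Foxp1 thus exceeded Foxp3 in spleen and lay under it in lung.

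**Figure D5:**
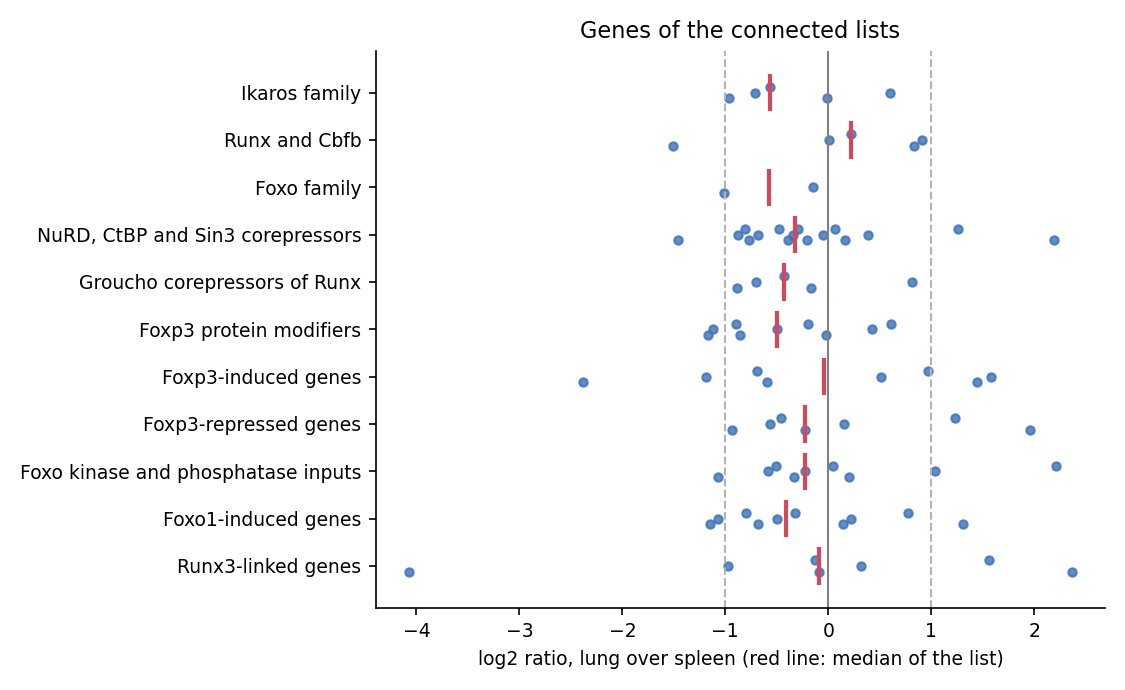
The log2 ratio of lung over spleen for each gene that reached 1 FPKM in either library (blue points) in the lists connected to the members, with the median of each list in red and dashed lines at 2-fold. In the lists drawn, which leave out the Foxp family, medians run from -0.58 for the Foxo family to 0.22 for the Runx genes with Cbfb and their corepressors, and every list but the Foxo family has genes on both sides of 0.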

How the data were processed

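Single-end reads of 75 bases were aligned by the authors to mm10 (TopHat2 2.1.1, Bowtie2 2.2.8, SAMtools 0.1.18), and the deposited FPKM were calculated with Cuffdiff 2.2.1, after SMART-Seq HT amplification without molecular identifiers. Annotation, Cuffdiff options and scaling between libraries are not given in the sources used here. Members and lists were chosen with earlier results of these data known.

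Values under 0.1 FPKM were set to 0.1, lung was divided by spleen, and ratios over 2-fold were called. By the rule for named genes, any list gene could be named, as could the 3 genes nearest to Foxp3. Reads were estimated as FPKM times effective length (fragments of 200 with SD 80), divided by the most frequent product among genes with a single RefSeq-tied GENCODE M21 transcript length of at least 1500 nt. At 1 kb, 1 read was worth 0.0964 FPKM in spleen and 0.0849 in lung. Lengths were found for 23650 symbols (97.1%). Of 2027 splenic and 1214 lung genes of 1 to 10 reads, 73.4% and 75.5% came within 0.1 of a whole number, so read numbers are approximate, and PCR copies count separately. Intervals of single values are exact Poisson, of ratios exact binomial, and of shifts between gene pairs approximate. In simulated data for 23650 genes, the call was made for 100 of 100 genes raised 4-fold and for 100 of 100 lowered. Since 4-fold lies far past the 2-fold line, this check cannot judge calls near it, such as Foxp3 at 2.23-fold and Foxo1 at 2.02-fold. Python 3.11.15 was used with scipy 1.17.1, numpy 2.4.6, matplotlib 3.10.9 and pandas 2.3.3. Values of some list genes are not reported here.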

Additional observations from a re-analysis of the deposited data

How the results depend on the processing

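Scaling decided which members passed 2-fold. Foxp3 was 1.65-fold higher in lung with both libraries rescaled to TPM and 1.97-fold with equal upper quartiles. The median log2 ratio of the 10 members was 0.000124 as deposited, -0.43 with TPM and -0.18 with equal upper quartiles. Members over 2-fold higher numbered 1 as deposited, 0 with TPM, 0 with equal upper quartiles and 2 (Foxp3 and Runx3) with T cell genes set equal. Members over 2-fold lower, Foxo3 included, numbered 2 as deposited, 4 with TPM, 1 with T cell genes set equal, 1 with a floor of 1 FPKM and 0 with a pseudocount of 1 FPKM. Without Foxo3 the numbers were 1 as deposited, 3 with TPM, 2 with equal upper quartiles, 0 with T cell genes set equal and 0 with the pseudocount of 1 FPKM. Calls past 1.5-fold gave 3 members higher and 4 lower (3 without Foxo3), and calls past 3-fold gave 0 and 1 (0 without Foxo3). Over all genes, 3311 were higher and 3070 lower past 1.5-fold, 1473 were higher and 1094 lower past 3-fold, 848 were higher and 666 lower at 10 FPKM or more, 2678 were higher and 2850 lower with no filter (of 24346 genes), and 1586 were higher and 3133 lower with TPM. Of the 72 ratios of the other 9 members under 8 settings, 51 stayed within the counting interval and 21 did not. The settings include floors and pseudocounts, which can hardly move genes far above 1 FPKM, so the 51 are no measure of stability. With TPM and with equal upper quartiles, each of these members except Foxo3 left its interval. With T cell genes set equal, Foxo1, Ikzf2 and Ikzf4 did, and with the median ratio of tested genes set to 1 none did. Ikzf2, Cbfb and Runx1 changed direction under at least 1 scaling.

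With T cell genes set equal, the median log2 ratio of tested genes rose by 0.10, and with equal upper quartiles it fell by 0.18. No paired analysis was possible because each tissue has 1 library, and no replicate could be left out for the same reason. At this depth Foxo3 rested on about 20 reads in spleen, the fewest of the members.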
